A study of Mus musculus with 9 samples.

Results

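The 32 genes described here are markers by which tissue macrophages are recognised in RNA data, taken as a given list of symbols and followed through 3 stages of the mouse heart. All 32 were among the 48820 genes of the deposited table, and 24 of them reached a mean of 1 FPKM over the hearts, as did 13618 genes in all. FPKM count the fragments of a gene per kilobase of its length and per 1e6 fragments sequenced from the heart. RNA came from whole hearts of wild-type, untreated C57BL/6J mice labelled as male, with 3 biological replicates each at embryonic day 18.5 (E18.5d), postnatal day 1 (P1d) and postnatal day 7 (P7d). The study set these stages side by side to follow the heart through birth and suckling. No cells were sorted, so every value below is the RNA of a gene in the whole organ, and fewer macrophages and less RNA per macrophage cannot be told apart in it.

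Macrophages reach the heart before birth from yolk sac and fetal liver precursors and later also from blood monocytes. Those that settle early and renew themselves in place are marked in mouse by *Lyve1*, *Timd4*, *Folr2* and *Cd163*, whereas cells recently derived from monocytes carry the chemokine receptor *Ccr2*. Both kinds depend on the growth factor CSF1 and its receptor, clear dying cells and debris, make the complement subunits C1q, and signal through receptors whose adaptors carry immunoreceptor tyrosine-based activation motifs (ITAM).

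The steps between low FPKM values gave a depth of 25 to 43.5 times 1e6 fragments per heart, so that 1 fragment on a kilobase was worth 0.023 to 0.04 FPKM. Between 88.0% and 91.3% of the low values used came out as whole fragments. *Xist*, the RNA of the inactive X chromosome, was above 1 FPKM in 4 of the 9 hearts (E18.5d replicates 1 and 3, P7d replicates 2 and 3, and 0 at P1d), which goes against their label as male. Results are therefore also given with *Xist* as a covariate and for the other 5 hearts alone. P1d replicate 3 held the lowest value of its stage in 20 of the 24 tested members, against 36.7% of all tested genes, and E18.5d replicate 3 in 16 of the 24, against 44.3%. The median tested gene of the whole table changed by -0.06 on the log2 scale from E18.5d to P1d, by -0.09 from P1d to P7d and by -0.17 from E18.5d to P7d, and rescaling the columns by median of ratios brought these to 0.00, 0.00 and -0.02. Across all genes, 2505 were higher and 3755 lower at P1d than at E18.5d as deposited, 3154 and 3112 after median of ratios, and 1175 and 4694 with equal column sums. The same 3 splits were 2112 and 3901, 2986 and 2700, and 2200 and 1729 for P7d against P1d. For P7d against E18.5d they were 1706 and 5025, 2905 and 2848, and 1267 and 4443.

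Of the 24 tested macrophage genes, 13 were higher at P1d than before birth and 7 of these fell again by P7d. The share of all genes with both calls was not counted, and both steps use the same P1d hearts. Folds given here are ratios of mean FPKM, and log2 changes, printed ± SE, are on the scale of log2(FPKM + 1), which understates the change of low genes. The rise was led by the haemoglobin scavenger receptor *Cd163* (3.83-fold), the transcription factor *Spi1* (2.46-fold) and the lipid receptor *Trem2* (2.46-fold). The test was limma on log2(FPKM + 1), with Benjamini-Hochberg adjustment over all 13618 genes and a threshold of 0.05, and the same test called 18.4% of all genes higher. *Cd163* averaged 3.28 FPKM in the P1d hearts, against 0.857 before birth and 1.04 in the P7d hearts. It thus reached the mean of 1 FPKM needed for testing only through P1d, which partly sets its call. Its rise was still called when limma was run without that filter (adjusted p = 0.0217). None of the 24 was lower (0, also at an unadjusted p under 0.05), where 27.6% of all genes were, and the median member changed by 0.54. With columns rescaled to equal sums, 12 members were higher and 2 were lower, namely *Adgre1* and *Mrc1*. With *Xist* as a covariate 11 of the 13 calls remained. The 5 hearts without *Xist* leave a single heart at E18.5d, and there the log2 change was 1.15 for *Cd163*, 0.99 for *Spi1* and 0.42 for *Folr2*. The 13 genes were called with these same hearts included, so this is no separate test of the rise. Neutrophil markers rose over the same step, from a summed 7.08 to 13.8 FPKM at E18.5d to 53.7 to 80.7 at P1d over 12 genes, and their part in the rise was not tested.

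From P1d to P7d, 9 members were lower and 4 were higher, where the test called 28.6% of all genes lower and 15.5% higher. The lower ones were *Lyve1*, *Fcgr3*, *Cd163*, *Trem2*, *Tyrobp*, *C1qb*, *Pf4*, *Maf* and *C1qc*. The higher ones were *Ptprc*, *Cx3cr1*, *Adgre1* and *Csf1*, and the median member changed by -0.38. Without P1d replicate 3 the lower members numbered 14, with *Cd68*, *C1qa*, *Fcer1g*, *Spi1* and *F13a1* added. Against E18.5d, P7d hearts were higher in 6 members (*Folr2*, *Lyz2*, *Ptprc*, *Csf1r*, *Cx3cr1* and *Csf1*) and lower in 2 (*Lyve1* and *Maf*), where the test called 12.5% of all genes higher and 36.9% lower, with a median member change of 0.19. After median of ratios or quantile normalization 11 members were higher at P7d than at E18.5d. In order of stages, 7 members rose and then fell, 6 rose at P1d with no call after it, 4 passed only upward between P1d and P7d, 2 only downward there, and 5 passed neither step (*Mrc1*, *Fcer1g*, *Aif1*, *Laptm5* and *F13a1*). The comparisons share hearts, so the steps of 1 gene are not independent of each other. Counts of listed genes given below are to be read beside the same shares of all genes.

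**Figure D1:**
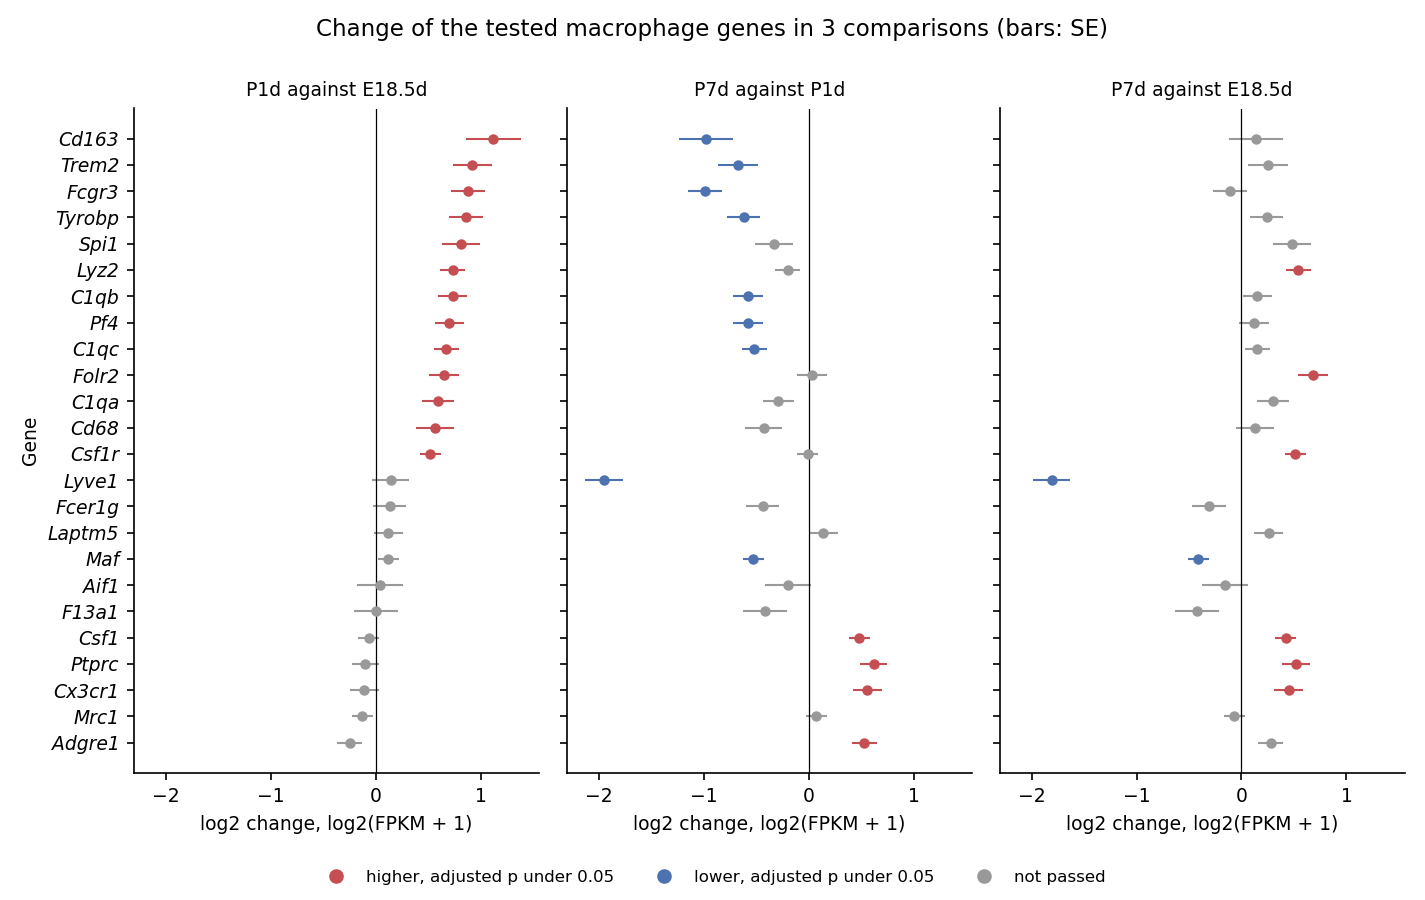
Change of the 24 tested macrophage genes in each comparison, as the log2 change on the log2(FPKM + 1) scale (x axis) per gene (y axis), with bars for the standard error from limma. Red marks higher, blue lower and grey not passed at an adjusted p under 0.05. The 13 red genes of the left panel lie between 0.52 and 1.12, and *Lyve1* stands apart in the other panels at -1.95 and -1.81.

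C1q, the recognition molecule that starts the classical complement pathway, is built from the products of *C1qa*, *C1qb* and *C1qc*, which lie side by side on the minus strand of chromosome 4 (in GRCm38, chr4:136895917-136898803, chr4:136880129-136886187 and chr4:136889804-136893065). *C1qa* was at 21.35, 19.59 and 15.86 FPKM in the E18.5d hearts, at 30.25, 35.25 and 22.49 in the P1d hearts and at 22.73, 25.19 and 22.19 in the P7d hearts. The E18.5d hearts had 17.95, 17.85 and 13.78 FPKM of *C1qb*, the P1d hearts 27.76, 33.74 and 23.05 and the P7d hearts 17.43, 19.31 and 18.25. For *C1qc* the values were 12.96, 14.43 and 11.62 FPKM at E18.5d, 20.94, 25.4 and 17.85 at P1d and 13.99, 14.1 and 15.3 at P7d. In each of these genes all P1d hearts were above all E18.5d hearts, and P1d replicate 3 was the lowest of its stage. The P1d level was 1.55-fold that of E18.5d for *C1qa* (log2 change 0.59 ± 0.15, adjusted p = 0.0116), 1.71-fold for *C1qb* (log2 change 0.73 ± 0.14, adjusted p = 0.00218) and 1.65-fold for *C1qc* (log2 change 0.67 ± 0.12, adjusted p = 0.00171), all by limma. The call for *C1qa* was lost with *Xist* as a covariate (adjusted p = 0.0537). At P7d, *C1qb* fell 1.54-fold from P1d (log2 change -0.58 ± 0.14, adjusted p = 0.00795) and *C1qc* 1.48-fold (log2 change -0.52 ± 0.12, adjusted p = 0.00685). For *C1qa* the P7d and P1d hearts overlapped and the difference did not pass (log2 change -0.29 ± 0.15, adjusted p = 0.15). Within a heart, the FPKM of *C1qc* was 0.722 to 0.843 times that of *C1qb* at E18.5d, 0.753 to 0.774 times at P1d and 0.730 to 0.838 times at P7d, so this ratio overlapped between stages. That of *C1qa* to *C1qb* was 1.10 to 1.19 at E18.5d, 0.976 to 1.09 at P1d and 1.22 to 1.31 at P7d, with no overlap between any pair of stages.

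**Figure D2:**
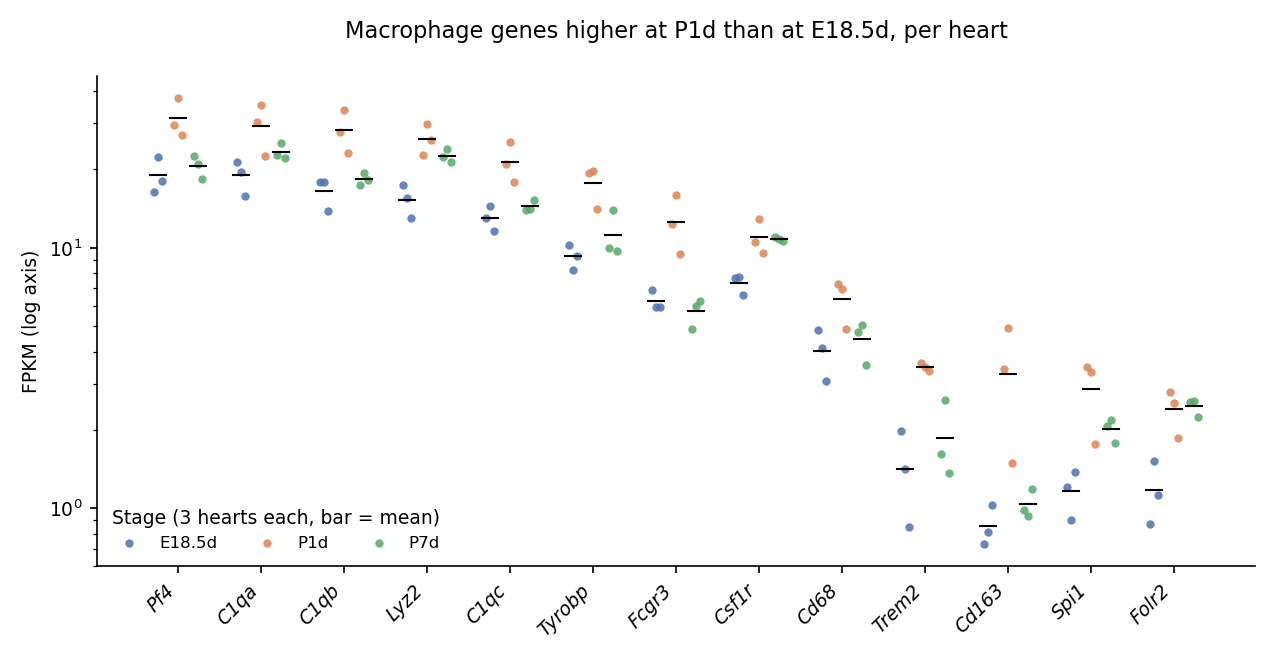
FPKM on a log axis (y) of the 13 macrophage genes called higher at P1d than at E18.5d (x), with a point per heart, 3 hearts per stage, and a bar for the mean. In every gene the 3 P1d hearts lie above the 3 E18.5d hearts. At P7d *Cd163* (0.94 to 1.19 FPKM) and *Fcgr3* (4.88 to 6.27) are back within or near the E18.5d range while *Csf1r* (10.61 to 11.03) and *Folr2* (2.25 to 2.58) are not.

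The bases upstream of the start of 4 members that rose and then fell are shown here. Any match to 2 short motifs of macrophage transcription factors is in capitals. These genes were chosen by those 2 calls and for having enough bases before an annotated exon, and whether they share regulation was not tested. The motifs were the core bound by PU.1, the product of *Spi1*, spelled GAGGAA or on the other strand TTCCTC, and the MAF half-site TGCTGA or TCAGCA. The matches do not overlap in the sequences shown. Sequences are from RefSeq on GRCm38.p6, 5′ to 3′ on the strand of the gene, and end at the base before the annotated start, or for *C1qc* before the first base that the gene annotation used here counts as exon.
C1qb, minus strand, chr4:136886201-136886450: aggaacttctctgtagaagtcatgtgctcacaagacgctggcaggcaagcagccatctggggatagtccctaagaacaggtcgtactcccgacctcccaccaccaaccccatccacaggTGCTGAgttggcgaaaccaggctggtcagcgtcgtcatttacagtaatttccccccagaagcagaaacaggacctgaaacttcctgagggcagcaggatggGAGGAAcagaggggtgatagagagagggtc
C1qc, minus strand, chr4:136893066-136893164: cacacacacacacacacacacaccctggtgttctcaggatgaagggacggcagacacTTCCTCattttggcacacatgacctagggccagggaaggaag
Trem2, plus strand, chr17:48346151-48346400: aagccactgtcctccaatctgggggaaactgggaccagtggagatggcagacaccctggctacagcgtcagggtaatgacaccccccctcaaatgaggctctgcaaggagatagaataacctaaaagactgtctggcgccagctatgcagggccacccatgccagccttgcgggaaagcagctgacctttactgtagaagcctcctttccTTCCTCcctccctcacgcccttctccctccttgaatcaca
Pf4, plus strand, chr5:90772185-90772434: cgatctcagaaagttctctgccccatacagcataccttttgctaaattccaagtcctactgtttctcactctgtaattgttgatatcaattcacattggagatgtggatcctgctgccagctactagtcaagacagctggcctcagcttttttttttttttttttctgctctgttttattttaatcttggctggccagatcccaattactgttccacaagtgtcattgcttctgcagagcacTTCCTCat
Each of these stretches held 1 match to the PU.1 core, and that of *C1qb* held in addition 1 to the MAF half-site. They are 4 of the 7 members with this course. Of the other 3, *Fcgr3* held both motifs and *Cd163* neither in the 250 bases before a start, windows that overlap annotated exons and are not printed, and *Tyrobp* was not analysed here. In windows of 250 bases before a start, the PU.1 core was found in 14 of the 28 windows of the 23 members in the table (13 genes), and in 23.3% of 32851 windows of all genes. The MAF half-site was found in 8 of the 28 windows (6 genes), and in 16.1% of all. A match of letters is a description of the window and says nothing on whether the factor binds there.

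Fc receptors bind the constant part of antibodies, and most signal through the shared gamma chain, the product of *Fcer1g*. At E18.5d *Fcgr3* stood at 6.86, 5.94 and 5.92 FPKM, at P1d at 12.29, 15.94 and 9.46 and at P7d at 4.88, 5.98 and 6.27. The P1d hearts stood above those of both other stages without overlap. *Fcgr3*, a low-affinity receptor for immunoglobulin G, was 2.01-fold higher at P1d than at E18.5d (log2 change 0.88 ± 0.16, adjusted p = 0.00179) and 2.2-fold lower at P7d than at P1d (log2 change -0.99 ± 0.16, adjusted p = 0.00105) by limma. *Fcer1g* was at 6.97, 6.55 and 6.66 FPKM in the E18.5d hearts, at 6.48, 10.3 and 6.11 in the P1d hearts and at 5.34, 4.49 and 5.95 in the P7d hearts. Its stages overlapped at P1d and E18.5d (log2 change 0.13 ± 0.16, adjusted p = 0.551), and the P7d hearts were below the P1d hearts without passing (log2 change -0.44 ± 0.16, adjusted p = 0.0543). The ratio of *Fcgr3* to *Fcer1g* FPKM within a heart was 0.889 to 0.984 at E18.5d, 1.55 to 1.90 at P1d and 0.914 to 1.33 at P7d. *Fcgr3* is close in sequence to the inhibitory receptor gene *Fcgr2b*, which was at 0.74 to 0.98 FPKM at E18.5d, 2.38 to 3.48 at P1d and 0.92 to 1.74 at P7d, and how the authors' counting divided shared reads is not given in the sources used here. *Fcgr1*, the high-affinity receptor, stayed under the filter, at 0.94, 1.17 and 1.17 FPKM at E18.5d, 0.92, 0.92 and 0.62 at P1d and 0.41, 0.94 and 0.49 at P7d. Its E18.5d hearts were above all P1d hearts and met those of P7d at 0.94 FPKM, and in a fit without the filter and with a pseudocount of 0.1 it passed no comparison (adjusted p from 0.087 to 0.418).

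*Tyrobp* encodes DAP12, an ITAM adaptor, and *Trem2* a receptor for lipids and apoptotic cells that signals through it. The E18.5d hearts had 10.28, 8.22 and 9.28 FPKM of *Tyrobp*, the P1d hearts 19.4, 19.66 and 14.1 and the P7d hearts 10, 13.91 and 9.71. For *Trem2* the values were 1.98, 1.42 and 0.85 FPKM at E18.5d, 3.6, 3.48 and 3.38 at P1d and 1.62, 2.6 and 1.37 at P7d. In both genes the P1d hearts were above all E18.5d and all P7d hearts. *Tyrobp* was 1.91-fold higher at P1d than at E18.5d (log2 change 0.86 ± 0.16, adjusted p = 0.00191) and then fell 1.58-fold (log2 change -0.62 ± 0.16, adjusted p = 0.0111). *Trem2* was 2.46-fold higher (log2 change 0.92 ± 0.19, adjusted p = 0.00393) and then fell 1.87-fold (log2 change -0.67 ± 0.19, adjusted p = 0.0194), also by limma. This fall lost its call without P1d replicate 1, without P7d replicate 1 or 3, without the filter and with *Xist* as a covariate, with adjusted p from 0.00955 to 0.0719 over its alternatives. Of 23 genes listed for signalling under ITAM receptors, 16 were tested, and 4 were higher and 0 lower at P1d, 3 higher and 1 lower from P1d to P7d, and 4 higher and 0 lower at P7d against E18.5d. The phosphatase gene *Ptpn6* led the last of these (log2 change 0.80 ± 0.11, adjusted p = 0.000305), followed by the actin regulator *Coro1a* (0.59 ± 0.14, adjusted p = 0.00715).

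PU.1, encoded by *Spi1*, is the transcription factor that specifies macrophages, and c-MAF, encoded by *Maf*, is a factor of mature and resident cells. At E18.5d *Spi1* stood at 1.21, 0.9 and 1.38 FPKM, at P1d at 3.48, 3.35 and 1.77 and at P7d at 2.07, 2.19 and 1.78. Every P1d heart was above every E18.5d heart, and P1d replicate 3 lay apart from the other P1d hearts at the P7d level. The rise was 2.46-fold (log2 change 0.81 ± 0.18, adjusted p = 0.0057), and the P7d hearts, 1.73-fold above E18.5d without overlap, did not pass (log2 change 0.48 ± 0.18, adjusted p = 0.0524). Over the alternatives this last adjusted p ran from 0.00789 to 0.157. *Maf* was at 2.33, 2.82 and 2.4 FPKM in the E18.5d hearts, at 3.04, 2.97 and 2.43 in the P1d hearts and at 1.57, 1.76 and 1.6 in the P7d hearts. The P7d hearts were below all hearts of both earlier stages, by 1.71-fold against P1d (log2 change -0.53 ± 0.10, adjusted p = 0.00298) and 1.53-fold against E18.5d (log2 change -0.41 ± 0.10, adjusted p = 0.00898, lost under quantile normalization at an adjusted p of 0.0726). Of 12 further myeloid transcription factors, 9 were tested, and 2 were higher and 1 lower at P1d, 2 higher and 0 lower from P1d to P7d, and 2 higher and 0 lower at P7d against E18.5d. *Klf4*, a factor of monocytes that endothelium also makes, was at 4.06 to 4.76 FPKM at E18.5d, 7.17 to 8.04 at P1d and 6.81 to 8.63 at P7d. *Cebpa*, a factor of myeloid progenitors, was higher at P1d than at E18.5d (log2 change 0.44 ± 0.13, adjusted p = 0.0193). *Irf8* was the listed factor lower at P1d (log2 change -0.32 ± 0.09, adjusted p = 0.0159 by limma). It was higher again at P7d than at P1d (0.39 ± 0.09, adjusted p = 0.00651).

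CSF1 is the growth factor that keeps macrophages alive, and *Csf1r* encodes its receptor. The E18.5d hearts had 7.66, 7.71 and 6.57 FPKM of *Csf1r*, the P1d hearts 10.5, 12.94 and 9.51 and the P7d hearts 11.03, 10.85 and 10.61. Both later stages were above E18.5d without overlap, by 1.5-fold at P1d (log2 change 0.52 ± 0.10, adjusted p = 0.00313) and 1.48-fold at P7d (log2 change 0.51 ± 0.10, adjusted p = 0.00315), and the later stages overlapped (log2 change -0.01 ± 0.10, adjusted p = 0.956). For *Csf1* the values were 6.92, 7.41 and 6.02 FPKM at E18.5d, 5.72, 7.56 and 6.09 at P1d and 8.93, 9.43 and 9.77 at P7d. The ligand, which stromal and endothelial cells supply, overlapped between E18.5d and P1d (log2 change -0.07 ± 0.10, adjusted p = 0.634), and was higher later, at 1.45-fold the P1d level at P7d (log2 change 0.48 ± 0.10, adjusted p = 0.00502) and 1.38-fold the E18.5d level (log2 change 0.42 ± 0.10, adjusted p = 0.0088). Per heart, the ratio of *Csf1* to *Csf1r* FPKM was 0.903 to 0.961 at E18.5d, 0.545 to 0.640 at P1d and 0.810 to 0.921 at P7d, so that the P1d hearts stood below all others. Of 18 other genes of the CSF1 receptor and chemokine axis, 10 were tested, with 2 higher and 2 lower at P1d, 1 higher and 2 lower from P1d to P7d, and 0 higher and 4 lower at P7d against E18.5d. The chemokine genes *Ccl9* (0.67 to 1.07 FPKM at E18.5d, 2.84 to 4.83 at P1d and 0.68 to 0.95 at P7d) and *Ccl6* (0.70 to 0.96, 1.60 to 3.27 and 0.95 to 1.37) were those higher at P1d. Both reached the mean of 1 FPKM needed for testing only through the P1d hearts. Those lower at P1d were *Cxcr4* (5.64 to 7.75, 2.68 to 3.88 and 6.73 to 8.27) and *Ccl7* (1.18 to 2.30, 0.51 to 0.68 and 0.54 to 0.73). *Ccl7* reached that mean only through the E18.5d hearts. Of all genes, 18.4% were higher and 27.6% lower at P1d.

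*Adgre1* (F4/80), *Cx3cr1* (the fractalkine receptor) and *Ptprc* (CD45, carried by all leukocytes) followed another course, with no call across birth and a rise at P7d. At E18.5d *Adgre1* stood at 3.58, 3.06 and 2.9 FPKM, at P1d at 2.07, 3.06 and 2.44 and at P7d at 3.83, 4.27 and 4.1. *Cx3cr1* was at 3.5, 2.71 and 2.99 FPKM in the E18.5d hearts, at 2.56, 3.62 and 2.23 in the P1d hearts and at 4.99, 4.73 and 3.92 in the P7d hearts. The E18.5d hearts had 1.55, 1.66 and 1.28 FPKM of *Ptprc*, the P1d hearts 1.29, 1.23 and 1.47 and the P7d hearts 3.08, 2.03 and 2.67. In each gene the E18.5d and P1d hearts overlapped and the P7d hearts were above all P1d hearts. From P1d to P7d the rise was 1.61-fold for *Adgre1* (log2 change 0.53 ± 0.12, adjusted p = 0.00521), 1.62-fold for *Cx3cr1* (log2 change 0.56 ± 0.14, adjusted p = 0.0121) and 1.95-fold for *Ptprc* (log2 change 0.62 ± 0.13, adjusted p = 0.00431). Against E18.5d, *Ptprc* (1.73-fold, log2 change 0.52 ± 0.13, adjusted p = 0.00865) and *Cx3cr1* (1.48-fold, log2 change 0.45 ± 0.14, adjusted p = 0.0278) passed and *Adgre1* did not (log2 change 0.28 ± 0.12, adjusted p = 0.0705). The *Cx3cr1* call against E18.5d was lost when E18.5d replicate 2, E18.5d replicate 3, P7d replicate 1 or P7d replicate 2 was left out and without the filter, with adjusted p from 0.00924 to 0.0929 over the alternatives, and that against P1d with *Xist* as a covariate (adjusted p = 0.0575). Set against the receptor gene *Csf1r* in the same heart, *Adgre1* was at a ratio of 0.397 to 0.467 at E18.5d, 0.197 to 0.257 at P1d and 0.347 to 0.394 at P7d, and *Ptprc* at 0.195 to 0.215, 0.0951 to 0.155 and 0.187 to 0.279. Both ratios were lowest at P1d without overlap.

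The resident markers did not move together. *Cd163* encodes the receptor that takes up haemoglobin bound to haptoglobin. For *Cd163* the values were 0.73, 0.81 and 1.03 FPKM at E18.5d, 3.42, 4.94 and 1.49 at P1d and 0.99, 0.94 and 1.19 at P7d. All P1d hearts were above all hearts of the other stages, with P1d replicate 3 the lowest of its stage and the closest to them. The rise at P1d was 3.83-fold (log2 change 1.12 ± 0.26, adjusted p = 0.00677) and the fall to P7d 3.16-fold (log2 change -0.98 ± 0.26, adjusted p = 0.0137), the latter lost with *Xist* as a covariate (adjusted p = 0.0527). Since *Cd163* was tested only because of its P1d level, both calls are partly set by the filter, though neither was lost without it. *Folr2*, a folate receptor of resident macrophages, passed upward at P1d with no call after it. At E18.5d *Folr2* stood at 0.87, 1.52 and 1.13 FPKM, at P1d at 2.81, 2.54 and 1.86 and at P7d at 2.56, 2.58 and 2.25. Its P1d hearts were 2.05-fold above E18.5d (log2 change 0.65 ± 0.14, adjusted p = 0.00531) and its P7d hearts 2.1-fold (log2 change 0.68 ± 0.14, adjusted p = 0.00376), both without overlap, while P7d and P1d overlapped (log2 change 0.03 ± 0.14, adjusted p = 0.867).

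*Lyve1*, a hyaluronan receptor on resident macrophages and on lymphatic endothelium, was the tested member with the largest change. *Lyve1* was at 17.72, 16.72 and 15.23 FPKM in the E18.5d hearts, at 19.93, 23.23 and 13.28 in the P1d hearts and at 3.41, 4.64 and 4.03 in the P7d hearts. The E18.5d and P1d hearts overlapped (log2 change 0.14 ± 0.18, adjusted p = 0.532), although without P1d replicate 3 the P1d level was higher (log2 change 0.36, adjusted p = 0.0348). Every P7d heart was far below every earlier heart, by 4.67-fold against P1d (log2 change -1.95 ± 0.18, adjusted p = 4.93e-05) and 4.11-fold against E18.5d (log2 change -1.81 ± 0.18, adjusted p = 4.47e-05). These calls held under every alternative except the 5 hearts without *Xist*. Relative to *Csf1r* in the same heart, *Lyve1* was at 2.17 to 2.32 at E18.5d, 1.40 to 1.90 at P1d and 0.309 to 0.428 at P7d.

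Lymphatic endothelium shares *Lyve1*, and its markers were read beside it. Of the 6 listed besides *Lyve1*, 4 were lower and 1 higher at P7d than at E18.5d, against 36.9% and 12.5% of all genes. From P1d to P7d, the step at which *Lyve1* fell, 2 were lower (*Mmrn1* and *Reln*) and 2 higher (*Prox1* and *Flt4*). Over that step 28.6% of all genes were lower and 15.5% higher. Their summed level without *Lyve1* was 49.7 to 55.8 FPKM at E18.5d, 41.9 to 50.6 at P1d and 45.1 to 47.6 at P7d, with none at 0. *Mmrn1*, which encodes an extracellular matrix protein, was at 3.46, 3.83 and 3.14 FPKM at E18.5d, 4.70, 4.51 and 2.58 at P1d and 1.0, 1.1 and 0.85 at P7d. There it was lower than at P1d (log2 change -1.28 ± 0.17, adjusted p = 0.000355) and than at E18.5d (-1.17 ± 0.17, adjusted p = 0.000448). Its hearts at P7d lay below all earlier ones, as those of *Lyve1* did. *Prox1*, the transcription factor that defines lymphatic identity and is also made by cardiomyocytes, was at 18.43 to 18.95 FPKM at E18.5d and 23.85 to 24.44 at P7d, and was higher (0.35 ± 0.07, adjusted p = 0.00275). The part of lymphatic vessels in the *Lyve1* values was not tested.

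**Figure D3:**
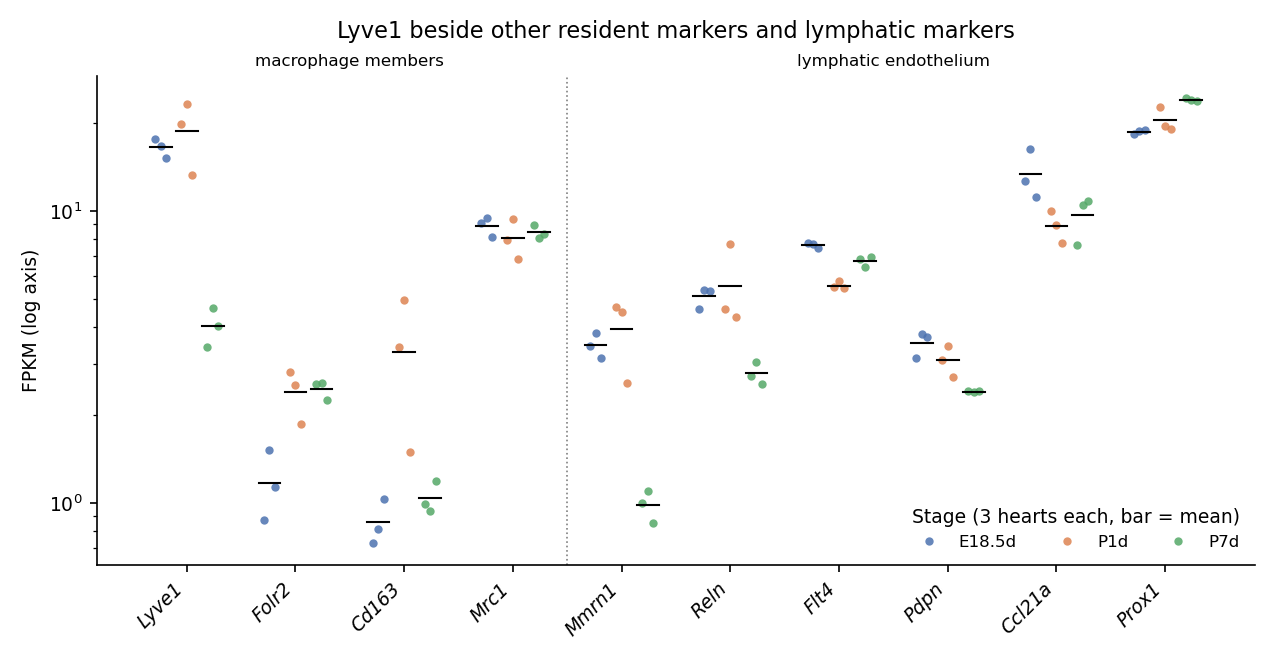
FPKM on a log axis (y) of *Lyve1*, *Folr2*, *Cd163* and *Mrc1* (left of the dotted line) and of 6 lymphatic endothelial markers (right), with a point per heart, 3 hearts per stage, and a bar for the mean. *Lyve1* (3.41 to 4.64 FPKM) and *Mmrn1* (0.85 to 1.10) drop at P7d, *Folr2* (2.25 to 2.58) and *Prox1* (23.85 to 24.44) do not.

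*Timd4*, the receptor for phosphatidylserine on dying cells, and *Ccr2* were both under 1 FPKM. *Timd4* was at 0.15, 0.2 and 0.27 FPKM at E18.5d, 0.09, 0.12 and 0 at P1d and 0.13, 0.18 and 0.21 at P7d, which amounts to at most about 17.1 fragments in a heart. The 0 in P1d replicate 3 allows up to 0.0554 FPKM for a count of 3. *Ccr2* was at 0.72, 0.48 and 0.47 FPKM at E18.5d, 0.14, 0.19 and 0.29 at P1d and 0.36, 0.41 and 0.35 at P7d, or about 25.3 to 116.4 fragments. These fragment numbers take all annotated exons as the length and cover counting error only. In both genes every P1d heart was below all others, and in *Timd4* the E18.5d and P7d hearts overlapped. In a fit without the filter and with a pseudocount of 0.1, chosen after the data were seen, *Ccr2* was lower at P1d than at E18.5d (log2 change -1.11 ± 0.27, adjusted p = 0.0189 by limma). It was lower there also without the filter at a pseudocount of 1 (-0.37 ± 0.08, adjusted p = 0.00976). In the former fit its P7d level did not pass against P1d (0.65 ± 0.27, adjusted p = 0.131) or E18.5d (-0.45 ± 0.27, adjusted p = 0.283). *Timd4* passed in no comparison of that fit (adjusted p from 0.0816 to 0.788).

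Dividing the resident markers by *Ccr2* within each heart removes the scale of the column. The ratios rest on *Ccr2* alone, and other monocyte genes did not share its low at P1d. Of 11 others tested, 6 were higher and 1 lower at P1d than at E18.5d, against 18.4% and 27.6% of all genes. Among the 6, *Plac8* was at 2.35 to 3.42 FPKM at E18.5d, 3.39 to 7.21 at P1d and 1.75 to 2.49 at P7d. The ratio of *Lyve1* to *Ccr2* FPKM was 24.6, 34.8 and 32.4 in the E18.5d hearts, 142, 122 and 45.8 in the P1d hearts and 9.47, 11.3 and 11.5 in the P7d hearts. It thus peaked at P1d and was lowest at P7d without overlap, with a difference of -1.57 in log2 ratio between P7d and E18.5d. The ratio of *Folr2* to *Ccr2* was 1.21, 3.17 and 2.40 at E18.5d, 20.1, 13.4 and 6.41 at P1d and 7.11, 6.29 and 6.43 at P7d. That of *Cd163* to *Ccr2* was 1.01, 1.69 and 2.19, then 24.4, 26.0 and 5.14, and then 2.75, 2.29 and 3.40. Both were higher in every P7d heart than in every E18.5d heart, by 1.49 and 0.71 in log2 ratio. With a pseudocount of 1 in place of 0.1 FPKM these differences were 0.86 and 0.31, and without E18.5d replicate 1 that of *Cd163* was 0.45. The denominator moved too, since *Ccr2* was 1.49-fold lower at P7d than at E18.5d without overlap. *Cd163* itself was 1.21-fold higher with overlap (adjusted p = 0.691 by limma), and *Folr2* 2.1-fold higher (adjusted p = 0.00376). In these 3 ratios the exact two-sided permutation p of P7d against E18.5d was 0.1, the smallest that 3 hearts against 3 can give, so none could pass 0.05. For *Timd4* to *Ccr2*, the ratios of 0.208, 0.417 and 0.575 at E18.5d and 0.361, 0.439 and 0.600 at P7d overlapped (difference 0.30, exact permutation p = 0.5), and without E18.5d replicate 1 the difference was -0.01. From E18.5d to P1d the log2 ratio rose by 1.25 for *Lyve1*, 2.09 for *Folr2* and 2.79 for *Cd163*, each without overlap (exact permutation p = 0.1), a step over which *Ccr2* itself fell in the fit without the filter. From P1d to P7d the difference was -2.82 for *Lyve1* and -2.08 for *Cd163* (exact permutation p = 0.1), and -0.60 for *Folr2*, whose hearts overlapped (p = 0.4). For *Timd4* the hearts overlapped at both steps, with differences of 0.2 from E18.5d to P1d (exact permutation p = 0.7) and 0.1 from P1d to P7d. The differences in log2 ratio numbered 12 in all. Between E18.5d and P7d the *Lyve1* ratio thus moved down, and the *Folr2* and *Cd163* ratios moved up, in hearts that did not overlap.

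**Figure D4:**
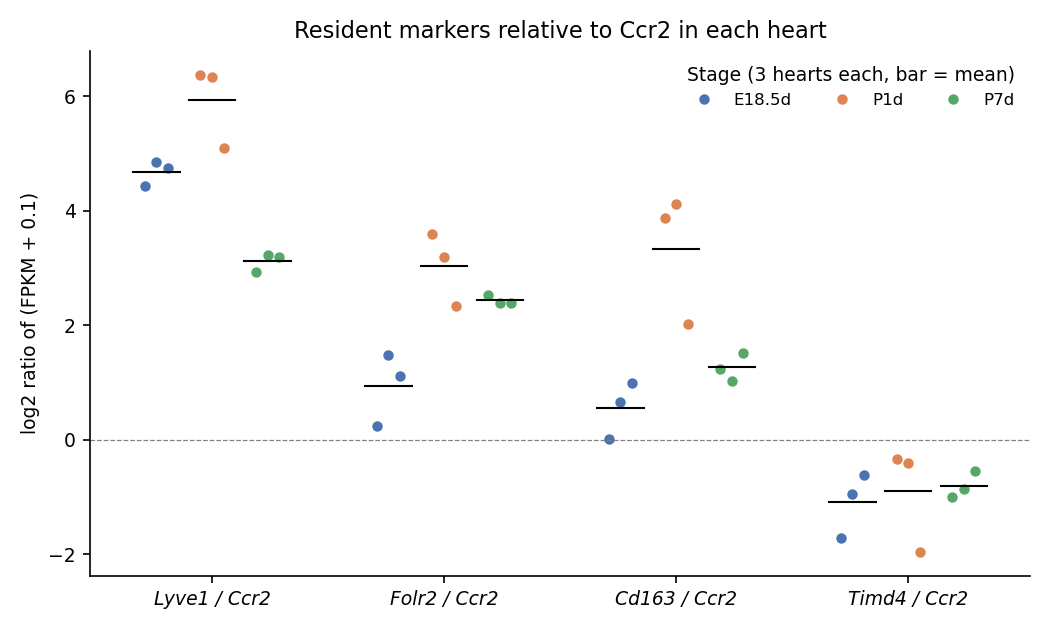
Log2 ratio of the FPKM of *Lyve1*, *Folr2*, *Cd163* and *Timd4* to that of *Ccr2* (y axis, after adding 0.1 FPKM to both) in each of the 9 hearts, by gene (x) and stage (colour), with bars for the mean of 3 hearts. From E18.5d to P7d the mean falls by 1.57 for *Lyve1* and differs by 1.49 for *Folr2* and 0.71 for *Cd163*, while the *Timd4* hearts overlap.

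Further genes of resident macrophages gave a mixed picture too. *Mrc1*, the mannose receptor, was at 9.1, 9.46 and 8.18 FPKM at E18.5d, 7.98, 9.4 and 6.85 at P1d and 8.95, 8.08 and 8.35 at P7d. Its stages overlapped and it passed no comparison as deposited (adjusted p from 0.316 to 0.625). Set against *Csf1r*, its ratio was 1.19 to 1.25 before birth, 0.720 to 0.760 at P1d and 0.745 to 0.811 at P7d, so it fell behind the receptor gene. *F13a1*, the coagulation factor XIII subunit that resident macrophages and megakaryocytes make, was at 9.77, 9.67 and 8 FPKM at E18.5d, 10.11, 12.84 and 5.79 at P1d and 6.95, 6.65 and 6.14 at P7d. It passed no comparison (P7d against P1d log2 change -0.42 ± 0.21, adjusted p = 0.138), with the P7d hearts below all E18.5d hearts. The E18.5d hearts had 16.34, 22.37 and 18.1 FPKM of *Pf4*, the P1d hearts 29.68, 37.52 and 27.11 and the P7d hearts 22.51, 20.91 and 18.33. *Pf4*, the chemokine platelet factor 4, which resident macrophages share with platelets, was 1.66-fold higher at P1d than at E18.5d (log2 change 0.70 ± 0.14, adjusted p = 0.00306) and 1.53-fold lower at P7d than at P1d (log2 change -0.58 ± 0.14, adjusted p = 0.00878), both without overlap. The fall was lost with *Xist* as a covariate (adjusted p = 0.0731). Of the 8 platelet and megakaryocyte markers, 3 were tested and *Pf4* was the only one called. The rest were under the filter, and among them only *Gp1ba* had every P1d heart above all others. It was at 0.66 to 0.74 FPKM at E18.5d, 1.30 to 1.71 at P1d and 0.62 to 0.65 at P7d. *Siglec1*, a sialic acid receptor, was at 0.89, 0.61 and 0.41 FPKM, 0.7, 1.07 and 0.6 and 0.25, 0.37 and 0.23 in the same order of stages. In the fit without the filter at a pseudocount of 0.1 it was lower at P7d than at P1d (-1.20 ± 0.33, adjusted p = 0.0303). *Vsig4*, a complement receptor, was at 0.42, 0.47 and 0.37, 0.53, 1.01 and 0.7 and 0.44, 0.56 and 0.53 FPKM and passed no comparison there.

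Of 24 further resident macrophage genes listed beside the members, 16 were tested, with 5 higher and 1 lower at P1d than at E18.5d, 0 higher and 7 lower from P1d to P7d, and 4 higher and 3 lower in P7d against E18.5d. The iron exporter *Slc40a1* was at 3.78, 4.43 and 3.99 FPKM at E18.5d, 9.70, 11.90 and 8.72 at P1d and 6.74, 5.48 and 5.43 at P7d, with no overlap between stages (P1d against E18.5d 1.12 ± 0.12, adjusted p = 8.42e-05). *Wfdc17*, a secreted protein of activated macrophages, was at 0.17 to 0.82 FPKM, 2.01 to 3.96 and 0.71 to 2.80. Of 22 monocyte genes, 11 were tested, and 6 were higher and 1 lower at P1d, 0 higher and 3 lower from P1d to P7d, and 3 higher and 1 lower at P7d against E18.5d. Their leaders were *Ly6c1* (19.87 to 28.24 FPKM at E18.5d, 37.54 to 77.73 at P1d and 75.87 to 91.76 at P7d), which endothelium also makes, and *Nr4a1* (3.71 to 4.44, 9.90 to 12.38 and 3.81 to 5.91), a nuclear receptor of patrolling monocytes and an immediate early gene of many cells.

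*Lyz2* and *Lyz1* encode lysozyme, and *Cd68* and *Laptm5* proteins of the lysosome of phagocytes. For *Lyz2* the values were 17.36, 15.53 and 12.99 FPKM at E18.5d, 22.64, 29.86 and 25.81 at P1d and 22.26, 23.9 and 21.31 at P7d. Both later stages were above E18.5d without overlap, by 1.71-fold at P1d (log2 change 0.73 ± 0.12, adjusted p = 0.000912) and 1.47-fold at P7d (log2 change 0.54 ± 0.12, adjusted p = 0.00467). *Lyz1*, nearly identical to *Lyz2* and its neighbour on chromosome 10, was at 0.29, 0.22 and 0.03 FPKM, 0, 0.04 and 0.14 and 0.03, 0.03 and 0.02, so reads may be divided between both and their values are uncertain. At E18.5d *Cd68* stood at 4.84, 4.12 and 3.07 FPKM, at P1d at 7.27, 6.96 and 4.9 and at P7d at 4.77, 5.05 and 3.54. The P1d hearts were above the E18.5d hearts by 1.59-fold (log2 change 0.56 ± 0.18, adjusted p = 0.0267), but this call was lost without either E18.5d replicate 2 or 3 or P1d replicate 1 or 2, with equal column sums, without the filter and with *Xist* as a covariate (range of adjusted p over the alternatives, from 0.00143 to 0.126). *Laptm5* was at 5.77, 5.8 and 4.39 FPKM, 5.69, 7.34 and 4.73 and 6.63, 6.34 and 6.68 in the order of the stages. *Aif1* encodes an actin-binding protein and was at 2.08, 2.54 and 1.64, 2.92, 2.33 and 1.38 and 2.27, 1.08 and 2.02. *Ms4a7*, a membrane protein of mature macrophages, was at 0.6, 0.81 and 0.74, 0.77, 1.07 and 1.48 and 0.97, 0.97 and 1.13. None of the 3 passed a comparison, *Ms4a7* in the fit without the filter at a pseudocount of 0.1 (adjusted p from 0.177 to 0.913). *Cd14*, the coreceptor for bacterial lipopolysaccharide, was at 0.4, 0.54 and 0.13 FPKM at E18.5d, 0.81, 0.72 and 0.78 at P1d and 1.29, 1.08 and 1 at P7d. Its stages did not overlap, and in that fit its P7d level exceeded that of E18.5d (1.54 ± 0.36, adjusted p = 0.0139). Without the filter at a pseudocount of 1 it was also higher at P1d than at E18.5d (0.40 ± 0.12, adjusted p = 0.0437). Of 18 other lysosomal genes of phagocytes, all tested, 9 were higher and 1 lower at P1d, 0 higher and 7 lower from P1d to P7d, and 5 higher and 4 lower at P7d against E18.5d. *Ctss*, the lysosomal protease cathepsin S, was at 6.27 to 12.17 FPKM, 13.81 to 14.57 and 6.07 to 7.35, another gene with its peak at P1d. Of 25 complement and phagocytosis receptor genes, 17 were tested, with 7 higher and 0 lower at P1d, 0 higher and 5 lower from P1d to P7d, and 3 higher and 1 lower at P7d against E18.5d. Their leader *Cd36*, at 182.94 to 202.67 FPKM before birth and 532.01 to 638.18 at P1d, is also a fatty acid transporter of muscle and endothelium.

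Other leukocytes share several members, such as *Spi1*, *Tyrobp*, *Fcgr3*, *Lyz2* and *Ptprc*. Neutrophil markers rose at P1d, as the first 4 of these did, while *Ptprc* had no call over that step. All 6 tested neutrophil genes of 12 listed were higher at P1d than at E18.5d, and 5 were lower at P7d than at P1d. Of these, *Lcn2* (means of 0.733, 3.53 and 0.883 FPKM by stage) and *Retnlg* (0.683, 2.97 and 0.527) passed the filter only through P1d. Their calls are therefore partly set by the filter. The summed level of the 12 was 7.08 to 13.8 FPKM at E18.5d, 53.7 to 80.7 at P1d and 17.1 to 22.2 at P7d. *S100a9* was at 4.65, 5.26 and 3.08 FPKM at E18.5d, 19.44, 33.32 and 28.80 at P1d and 7.25, 9.41 and 10.92 at P7d, and *S100a8* at 2.13 to 4.99, 16.67 to 25.60 and 3.79 to 4.76. The granule gene *Elane* was at 0 in all P1d and P7d hearts. The summed level of the 32 macrophage genes was 165 to 194 FPKM, 220 to 321 and 191 to 206. Mast cells also make *Fcer1g*, and their markers summed to 40.2 to 44.3, 45.4 to 63.7 and 23.4 to 26.6 FPKM over 7 genes, and 4 of the 6 tested had fallen by P7d from E18.5d. B cell, T and NK cell and thymocyte markers had no gene past the filter and summed to at most 2.29 FPKM in a heart. Lung markers summed to 2.01 to 251 FPKM at E18.5d, 1.10 to 493 at P1d and 0 to 0.27 at P7d, uneven between hearts of a stage, and none passed. The highest sum lay mostly in the secretoglobin genes *Scgb3a1* (270.3 FPKM), *Scgb3a2* (179.21) and *Scgb1a1* (42.14). The surfactant genes *Sftpc*, *Sftpa1*, *Sftpb* and *Sftpd* were under 1 FPKM in every heart. The 5 liver markers, from an organ that also holds macrophages, summed to 33.3 FPKM in P1d replicate 2 and to 0.73 to 9.42 in the other hearts. P1d replicate 2 also had the highest summed level of the macrophage genes, and without it 12 members were higher at P1d than at E18.5d, *Cd68* being lost. Lung markers were highest in P1d replicate 1. The part of these cells in the macrophage genes was not tested.

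Some members share exons with a gene on the other strand (*Csf1r* with *Hmgxb3*, *Cx3cr1*, *Maf*, *Folr2* and *F13a1* each with a predicted gene), and the library kit does not mark strand, so reads in the shared bases cannot be told apart.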

How the data were processed

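RNA-seq of 9 hearts was used, 3 per stage, grouped by the stage in their labels. The authors deposited FPKM, rounded to 2 decimals, as 1 column for each heart. The submitters' processing notes name STAR, GRCm38 and mm10, and the counting tool is not given in the sources used here. Of the 48820 identifiers, 48144 were matched to GENCODE M21, and 21565 genes were at 0 in every heart. The 32 members, the comparison lists and the tests were chosen with earlier results of these data known. All members are named, and from each list at most the 2 largest changes past the threshold, with further list genes named after their values were seen. Genes whose mean reached 1 FPKM were fitted as log2(FPKM + 1) with limma 3.58.1 in R 4.3.3 (trend, all hearts in 1 fit) and adjusted over 13618 genes. The fit and the depth estimate were tested on simulated data. Ratios to *Ccr2* were compared by exact permutation tests with scipy 1.17.1 in Python 3.11.15, with a pseudocount of 0.1. Motifs of 6 letters were searched in 250 bases before RefSeq starts. Alternatives were another pseudocount, no filter, 3 rescalings, no trend, 2 stages only, a replicate block, an *Xist* covariate, a minimum log2 change of 1 and the omission of each heart in turn. After the data were seen, a fit without filter at a pseudocount of 0.1 and a fit of the 5 hearts without *Xist* were added. The deposited FPKM hold no counts, so precision was read from the spread between hearts.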

Additional observations from a re-analysis of the deposited data

How the results depend on the processing

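Of the 34 calls made for single macrophage genes, limma lost 0 with a pseudocount of 0.1, without the trend, with only the 2 stages compared, after median of ratios or with a replicate block, 1 with equal column sums or quantile normalization, 3 without the filter, 6 with an *Xist* covariate and 0 to 2 without any single heart. In 46 further pairs of gene and setting the sign changed with neither value past the threshold. At P1d against E18.5d, the 13 higher members became 1 in the 5 hearts without *Xist* and 1 with a log2 change of at least 1, and 11 to 14 in the others, with 12 to 14 without a single heart. The 0 lower became 1 (*Ccr2*) without the filter at either pseudocount, 2 with equal column sums and 0 to 1 without a single heart (1 without P1d replicate 2). At P7d against P1d, the 4 higher and 9 lower became 0 and 0 in the hearts without *Xist*, 0 and 1 with a log2 change of at least 1, and the lower ones 8 to 14 without a single heart (14 without P1d replicate 3). At P7d against E18.5d, the 6 higher became 11 after median of ratios or quantile normalization, 0 in the hearts without *Xist* and 0 with a log2 change of at least 1, and 9 with only the 2 stages. The 2 lower became 1 after quantile normalization, 4 with only the 2 stages, 0 without *Xist* and 1 with a log2 change of at least 1. The hearts without *Xist* leave 1, 3 and 1 per stage, so the lone hearts are assumed to vary like the P1d hearts; across all genes that fit called 239 higher and 584 lower at P1d. The cause of the other changes was not tested. The P7d against E18.5d difference in the log2 ratio of *Timd4* to *Ccr2* was -0.01 to 0.53 without a single heart, that of *Folr2* 1.14 to 1.76 and that of *Cd163* 0.45 to 0.93. Replicate numbers did not pair the hearts (same-number correlations from -0.055 to 0.112), and the replicate block gave 13 higher and 0 lower, 4 and 10, and 7 and 2 members. *Timd4* (0 to 17.1) and *Lyz1* (0 to 7.8) rest on few fragments in a heart, and the other 6 members with a mean under 1 FPKM on medians of 20.4 to 122.9.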

Other observations

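Markers of structural cells of the heart also changed between stages. Of 7 fibroblast markers, 0 were higher and 3 lower at P1d than at E18.5d, and 5 were higher at P7d than at P1d, with summed levels of 927 to 974 FPKM at E18.5d, 754 to 1048 at P1d and 1234 to 1263 at P7d. *Lum*, a proteoglycan of the collagen matrix (log2 change 0.73 ± 0.11, adjusted p = 0.000707 by limma), and *Dcn*, another one (0.68 ± 0.11, adjusted p = 0.00074), led the P7d against E18.5d comparison. Of 7 endothelial markers, 6 were higher at P7d than at E18.5d, led by the tight junction gene *Cldn5* (1.18 ± 0.11, adjusted p = 3.17e-05). The endothelial sum was 320 to 359 FPKM at E18.5d, 390 to 433 at P1d and 466 to 477 at P7d. Of 7 cardiomyocyte markers, 5 were higher at P1d, led by the myosin gene *Myh6* (1.06 ± 0.07, adjusted p = 6.2e-06).

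Among mast cell markers, *Cpa3*, a granule carboxypeptidase, was at 8.06, 5.33 and 7.86 FPKM at E18.5d, 4.88, 7.05 and 6.84 at P1d and 2.06, 1.90 and 2.33 at P7d, where every heart was below every earlier one (P7d against E18.5d -1.37 ± 0.16, adjusted p = 0.000145). *Kit*, the stem cell factor receptor, which other cells of the heart also make, was at 7.71 to 8.72 FPKM at E18.5d, 4.86 to 6.60 at P1d and 7.98 to 8.63 at P7d. It was lower at P1d than at E18.5d (-0.45 ± 0.10, adjusted p = 0.00468) and higher again at P7d (0.48 ± 0.10, adjusted p = 0.00381). Red blood cell genes summed to 8420 to 22750 FPKM at E18.5d, 12740 to 24730 at P1d and 8552 to 10410 at P7d over 7 genes, and of these 1 was called higher at P1d, the anion exchanger gene *Slc4a1* (1.02 ± 0.18, adjusted p = 0.00146).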
